A study of Mus musculus with 16 samples.

Results

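The genes of glycolysis and glycogen metabolism were followed in quadriceps muscle of mice labelled as having a skeletal-muscle-specific knockout of Nampt. The list has 37 genes, taken by symbol from the 45706 genes of the table: 18 code for steps of glycolysis or lactate dehydrogenase, 4 make or remove fructose bisphosphates, and 15 build, break down or regulate glycogen. Polyadenylated RNA was sequenced in 16 libraries, 8 from skeletal-muscle-specific Nampt knockout animals (KO) and 8 from wild-type animals (WT), with 16065394 to 51881258 estimated counts each. The tissue is quadriceps in both genotypes, and no treatment or time separates the libraries. The labels name no Cre driver, age, sex or litter, nor how many animals a library holds, so the p-values measure the spread between these libraries. Nampt, which makes the NAD precursor nicotinamide mononucleotide, averaged 73.4 ± 9.30 CPM in KO and 141.4 ± 12.0 CPM in WT (SD, n = 8 per genotype; log2 fold change -0.95, edgeR adjusted p = 9.68e-07). Its RNA was present in every KO library, and fewer cells of a type cannot be told apart from less RNA per cell in bulk tissue. The 7 skeletal muscle markers Acta1, Ckm, Mb, Ttn, Mylpf, Tnnt3 and Myh4 summed to between 131189 and 159851 CPM in KO libraries and between 134042 and 168151 CPM in WT libraries. CPM here are counts scaled to a common library size by trimmed mean of M values (TMM).

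Glycolysis splits glucose or glucose 6-phosphate into pyruvate and yields ATP without oxygen. The glyceraldehyde 3-phosphate dehydrogenase step reduces NAD+ to NADH, and lactate dehydrogenase turns NADH back into NAD+ as it reduces pyruvate to lactate. Muscle also stores glucose as glycogen, which glycogen phosphorylase opens during contraction and glycogen synthase rebuilds at rest. Fast fibres, which make up most of mouse quadriceps, are known for high levels of these enzymes, many as muscle-specific isoforms.

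None of the 36 tested members passed the adjusted threshold of 0.05 (edgeR's quasi-likelihood test, Benjamini-Hochberg adjustment over 13792 genes). Among all tested genes 6 passed, 3 higher and 3 lower in KO, which is 0.0435% of them. The lowest adjusted p of a member was 0.357, for Phkb. At an unadjusted p under 0.05, 3 members stood out, Pfkl higher in KO and Phkb and Pgam2 lower in KO. Over all tested genes that share was 9.57% (1320 genes), with 4.02% higher and 5.55% lower in KO. In 0 of the 36 tested members did the KO and WT libraries separate without overlap in CPM, and over all tested genes 17 did, or 0.123%. DESeq2 called 0 members and put 3 at an unadjusted p under 0.05, and 6 of the 36 tested members had no adjusted p there. The share of all genes at that unadjusted p was not computed for DESeq2. Its number of all genes called, larger than edgeR's, is given with the processing alternatives.

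The members' log2 fold changes (KO over WT) lay between -0.21 for Fbp2 and 0.24 for Pfkl. Their median was -0.03, beside 0.00 over all tested genes, with 13 members above 0 and 23 below 0, and 51.8% of all tested genes above 0. Among genes with a mean of at least 10 CPM, 10 of 32 members and 44.4% of all genes lay above 0, with medians of -0.03 and -0.01. The 95% interval lay inside a 1.5-fold change either way for 34 of 36 members (94.4%), beside 86.2% of all tested genes. At that level of at least 10 CPM, the 1.5-fold share was 93.8% of 32 members and 97.3% of 6944 genes. Ppp1r3c and Stbd1 were the members whose interval reached past 1.5-fold. The 17 tested glycolysis members had a median of 0.00 with 8 above 0 and 9 below. The 15 glycogen members had a median of -0.06 with 4 above 0 and 11 below, and the 4 regulators of fructose bisphosphates had a median of -0.02 with 1 above 0 and 3 below.

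**Figure D1:**
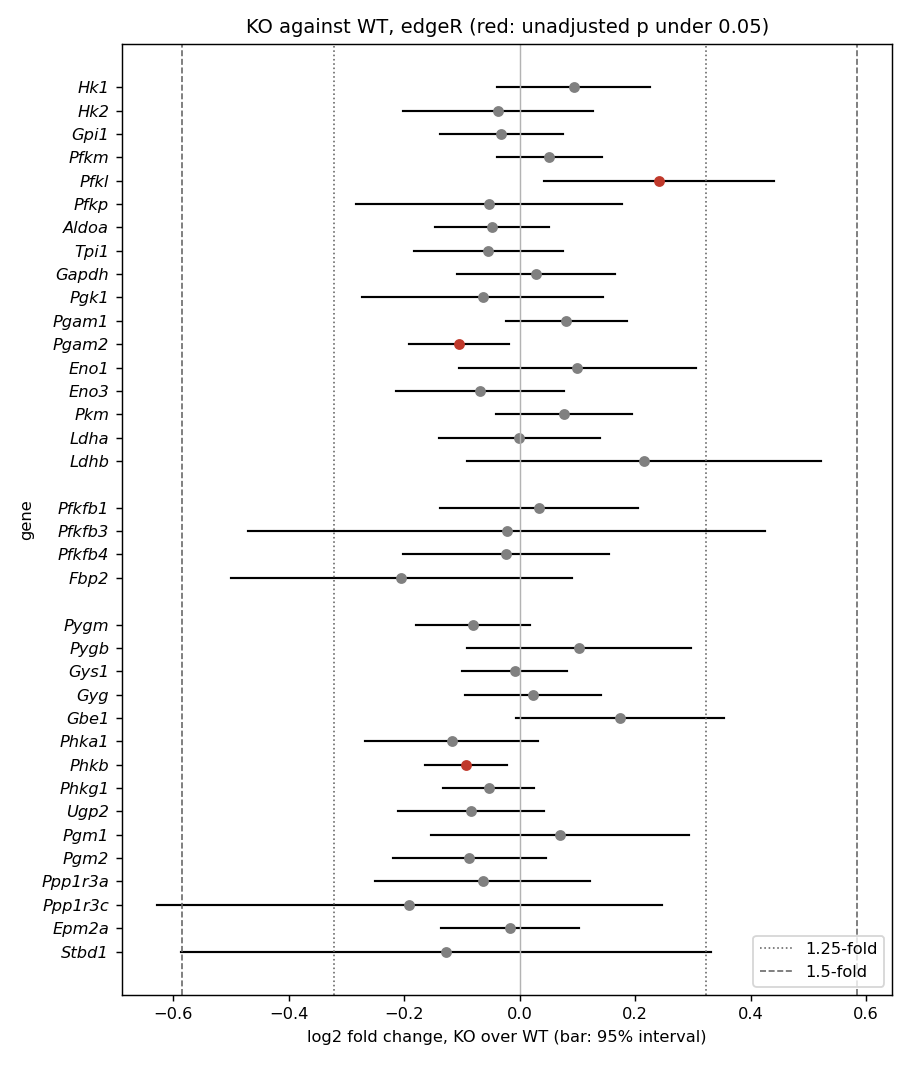
Log2 fold change of each tested member (KO over WT), with its 95% interval from edgeR, grouped by role from glycolysis at the top to glycogen at the bottom. The points lie between -0.21 and 0.24, Pfkl, Pgam2 and Phkb in red have an unadjusted p under 0.05, and the Ppp1r3c and Stbd1 bars cross the dashed 1.5-fold line.

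Together the 37 members took 5.26% ± 0.252 of all counts in KO and 5.33% ± 0.303 in WT (SD, n = 8 per genotype). Across libraries the share ran from 5.00% to 5.79% in KO and from 4.91% to 5.84% in WT, so the genotypes overlapped over almost the whole range. Glycolysis members took 3.90% ± 0.209 in KO and 3.91% ± 0.265 in WT, and glycogen members 1.31% ± 0.0556 in KO and 1.37% ± 0.0669 in WT. Aldoa alone, the muscle aldolase that splits fructose 1,6-bisphosphate, took 1.44% ± 0.0623 of all counts in KO and 1.48% ± 0.0886 in WT.

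Levels per length of exon set the genes in order within a library, and they spanned from Aldoa at 7869 CPM per kb in KO and 8135 in WT to Aldoc at 0.0838 in KO and 0.0974 in WT. Gapdh (4050 CPM per kb in KO, 3972 in WT), Pygm (2707 in KO, 2862 in WT), Eno3 (2510 in KO, 2632 in WT) and Pgam2 (1514 in KO, 1629 in WT) followed Aldoa in the KO order. Pkm, Pfkm and Ldha came next, at 1379, 1233 and 1213 CPM per kb in KO and 1308, 1190 and 1214 in WT, and these neighbours overlapped between libraries. Aldoc, the brain aldolase, was the member removed by the low-count filter, with 49 counts over the KO libraries and 75 over the WT libraries.

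**Figure D2:**
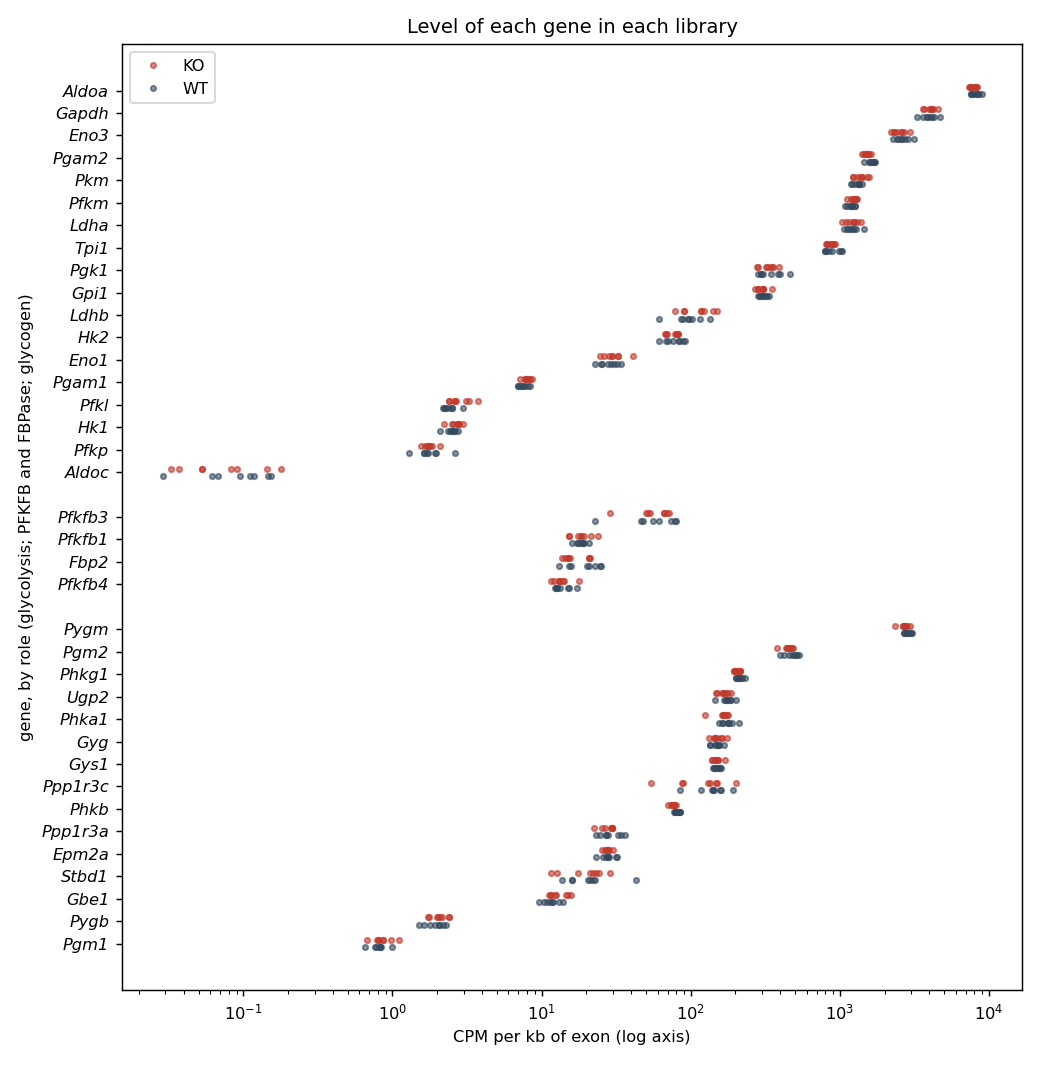
Level of each member per kb of exon in each library, on a log axis, KO in red above WT in dark blue for each gene. Genes are ordered by KO level within their role, from Aldoa near 7869 CPM per kb to Aldoc near 0.0838, and the 2 genotypes overlap in every gene.

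Glucose enters the pathway through hexokinase. Hk2, the insulin-regulated hexokinase of muscle (ENSMUSG00000000628), ran from 378.3 to 462.8 CPM in KO with a median of 442.8, and from 343.6 to 515.8 CPM in WT with a median of 449.7. The WT libraries bracketed the KO libraries, with a log2 fold change of -0.04 ± 0.08 (SE) and an adjusted p of 0.924 by edgeR. Hk2 made up 96.6% ± 0.328 of hexokinase RNA per length in KO and 96.9% ± 0.478 in WT. Hk1, the hexokinase of most tissues, had the remainder and a log2 fold change of 0.09. Gpi1, which converts glucose 6-phosphate to fructose 6-phosphate, had a log2 fold change of -0.03 over a range of 782.6 to 1016 CPM in KO and 821.7 to 963.6 CPM in WT.

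Phosphofructokinase commits sugar to glycolysis. Pfkm, the muscle subunit (ENSMUSG00000033065), ran from 3361 to 3916 CPM in KO with a median of 3747, and from 3276 to 3812 CPM in WT with a median of 3577. The groups overlapped, 7 of the 8 KO values exceeded the WT mean, and the log2 fold change was 0.05 ± 0.04 (SE; edgeR adjusted p = 0.761). Pfkl, the liver subunit (ENSMUSG00000020277, GRCm38 chr10:77986947-78010083, minus strand), was found at 8.87 to 14.0 CPM in KO with a median of 9.88, and at 8.10 to 11.2 CPM in WT with a median of 8.67. Its KO libraries 4, 6 and 8 were the high ones and the rest lay among the WT libraries. The Pfkl log2 fold change was 0.24 ± 0.09 (SE), the largest in size among tested members, with an unadjusted edgeR p of 0.0200 and an adjusted p of 0.406. Leaving out 1 library at a time, it ran from 0.18 without KO library 4, the highest in Pfkl, to 0.29 without WT library 7, which stood above the other WT libraries. Pfkp, the platelet subunit, had a log2 fold change of -0.05. Pfkm held 99.6% ± 0.0374 of phosphofructokinase RNA per length in KO and 99.6% ± 0.0593 in WT, and Pfkl held 0.231% ± 0.0400 in KO and 0.203% ± 0.0292 in WT.

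Of the triose enzymes, Aldoa and Tpi1, which interconverts the triose phosphates, had log2 fold changes of -0.05 and -0.05. Gapdh, the NAD-using dehydrogenase of the pathway (ENSMUSG00000057666), ran from 5380 to 6857 CPM in KO with a median of 6147, and from 4969 to 7008 CPM in WT with a median of 5919. Every KO library lay inside the WT range, and the log2 fold change was 0.03 ± 0.07 (SE; edgeR adjusted p = 0.935). Gapdh changed sign, to -0.01, when KO libraries 1, 3, 5 and 8 were left out. They are the KO libraries highest in the histone and small structural RNA genes given under Other observations. Pgk1, the X-linked phosphoglycerate kinase that makes the first ATP of the pathway, had a log2 fold change of -0.06 over a range of 506.4 to 716.4 CPM in KO and 513.2 to 841.2 CPM in WT.

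Phosphoglycerate mutase moves the phosphate along the 3-carbon chain, and muscle uses the Pgam2 form. Pgam2 (ENSMUSG00000020475, GRCm38 chr11:5801640-5803733, minus strand) ran from 1193 to 1359 CPM in KO with a median of 1270, and from 1225 to 1445 CPM in WT with a median of 1385. All 8 KO libraries lay below the WT mean and 7 of 8 WT libraries above the KO mean (WT library 1 was the exception), and the ranges overlapped. Pgam2 had a log2 fold change of -0.11 ± 0.04 (SE), with an unadjusted edgeR p of 0.0194 and an adjusted p of 0.404. Pgam1, the form of most other tissues, had a log2 fold change of 0.08 and an edgeR adjusted p of 0.651. Pgam1 was 0.525% ± 0.0319 of phosphoglycerate mutase RNA per length in KO (0.461% to 0.551%) and 0.461% ± 0.0317 in WT (0.420% to 0.503%). Endothelial cells carry such forms. The 5 endothelial markers Pecam1, Cdh5, Kdr, Tek and Vwf were each above 0 in every library, all 5 had a log2 fold change above 0, and their sum ran from 245.4 to 279.1 CPM in KO and from 224.8 to 257.3 CPM in WT. The log2 fold change was also above 0 for 5 of 5 macrophage, 4 of 4 erythroid and 4 of 5 fibro-adipogenic markers. The same held for 3 of 4 satellite cell, 3 of 5 adipocyte and 2 of 5 Schwann and nerve markers. The part of RNA from endothelial or these other cells in the Pgam1, Pfkl and Hk1 values was not tested.

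Eno3, the muscle enolase, had a log2 fold change of -0.07, and Eno1, the enolase of most tissues, one of 0.10. Eno3 held 98.8% ± 0.135 of enolase RNA per length in KO and 98.9% ± 0.111 in WT. Pkm, the pyruvate kinase that makes pyruvate and ATP (ENSMUSG00000032294), ran from 3183 to 4062 CPM in KO with a median of 3613, and from 3087 to 3676 CPM in WT with a median of 3472. KO libraries 4 and 8 exceeded every WT library while the others overlapped them, and the log2 fold change was 0.08 ± 0.06 (SE; edgeR adjusted p = 0.716).

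**Figure D3:**
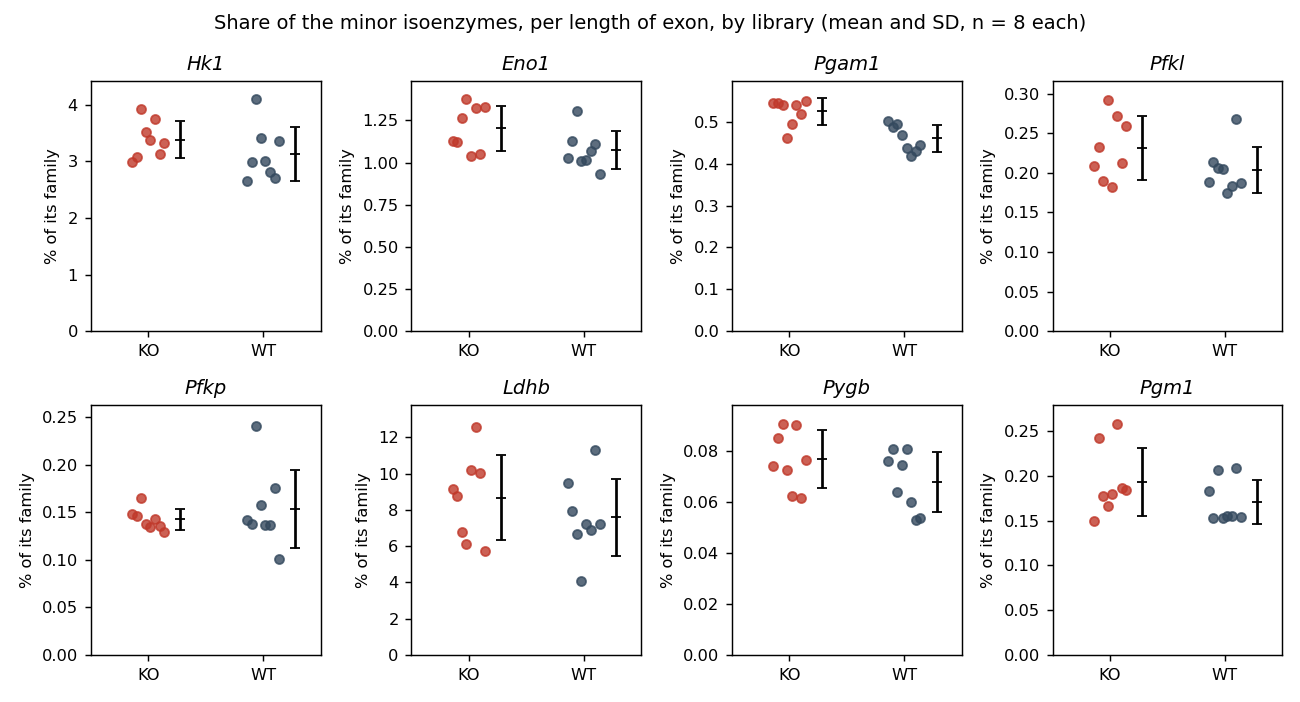
Share of the minor isoenzyme in its family's RNA per length of exon, in percent, by library, KO left and WT right, with mean and SD (n = 8 each). Hk1, Eno1, Pfkl, Pfkp, Pygb and Pgm1 stay below 5% of their families, Pgam1 lies at 0.525% in KO and 0.461% in WT, and Ldhb varies most, from 4.05% to 12.6%.

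Lactate dehydrogenase is built from the Ldha subunit, typical of fast glycolytic muscle, and the Ldhb subunit, typical of heart and oxidative fibres. The subunits varied against each other between libraries, and their promoters are shown to compare the DNA at their starts (300 bases, from 250 before to 50 after the RefSeq start, 5′ to 3′ on the gene's strand, RefSeq GRCm38.p6). Capitals mark ACGTG on either strand, the core of the sequence that hypoxia-inducible factors bind.
Ldha promoter, chr7:46845554-46845853, plus strand: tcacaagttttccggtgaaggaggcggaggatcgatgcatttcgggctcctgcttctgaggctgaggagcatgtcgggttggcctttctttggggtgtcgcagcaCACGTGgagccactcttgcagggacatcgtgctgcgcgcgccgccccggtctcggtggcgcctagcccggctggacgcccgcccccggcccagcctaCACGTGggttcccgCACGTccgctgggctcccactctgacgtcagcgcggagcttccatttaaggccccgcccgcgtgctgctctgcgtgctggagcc
Ldhb promoter, chr6:142507908-142508207, minus strand: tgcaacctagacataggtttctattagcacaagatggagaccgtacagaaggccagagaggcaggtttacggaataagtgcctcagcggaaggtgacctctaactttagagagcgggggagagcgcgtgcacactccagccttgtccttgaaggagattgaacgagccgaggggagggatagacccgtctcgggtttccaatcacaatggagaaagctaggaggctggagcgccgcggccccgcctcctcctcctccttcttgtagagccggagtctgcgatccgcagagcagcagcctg
The Ldha promoter holds 5 matches, of which 4 lie in a pair of palindromic CACGTG runs that match on both strands, at 145 and 48 bases before the start, and the remaining match starts 34 bases before it. The Ldhb promoter holds 0. ACGTG was found in 17 of the 37 members' promoters (45.9%) and in 19.6% of 32851 RefSeq promoters of the same length, with a median GC content of 60.3% in the members and 52.7% in all. CACGTG was found in 5 members' promoters (13.5%) and in 7.2% of all promoters. A single promoter was taken per member, while the set of all promoters holds several for some genes and is not limited to genes expressed in muscle. The shares were not matched for this or for GC content. A match is a run of letters and not evidence of binding, and RefSeq lists 2 starts for Ldha, of which the one nearer to the start of the GENCODE gene, 4329 bases into it, is printed.

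Ldha (ENSMUSG00000063229, GRCm38 chr7:46841475-46855627, plus strand) ran from 1964 to 2627 CPM in KO with a median of 2337, and from 2020 to 2766 CPM in WT with a median of 2266. The groups overlapped almost completely, and the mean was 2299 ± 207.1 CPM in KO and 2300 ± 233.5 CPM in WT (SD, n = 8 per genotype). The log2 fold change was 0.00 ± 0.07 (SE; edgeR adjusted p = 0.999), with a 95% interval from -0.14 to 0.14. Ldhb (ENSMUSG00000030246, GRCm38 chr6:142490249-142507957, minus strand) ran from 103.2 to 194.7 CPM in KO with a median of 153.3, and from 80.4 to 176.8 CPM in WT with a median of 125.6. KO libraries 5 and 6 were above every WT library and WT library 4 was below every KO library, while the others overlapped. Ldhb had a log2 fold change of 0.22 ± 0.15 (SE; edgeR adjusted p = 0.689), which was 0.14 without WT library 4 and 0.30 without WT library 7. Ldhb was 8.68% ± 2.34 of lactate dehydrogenase RNA per length in KO (5.74% to 12.6%) and 7.59% ± 2.12 in WT (4.05% to 11.3%).

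Ldhb was then set against the other 35 tested members over the 16 libraries, a relation chosen after the values were seen. KO library 6 had the highest Ldhb (194.7 CPM) and the lowest Ldha (1964 CPM), and WT library 4 had the lowest Ldhb (80.4 CPM) and the highest Ldha (2766 CPM). Pearson's r between Ldhb and Ldha was -0.77 (permutation p = 0.00053, adjusted over 35 relations 0.00927), and Spearman's rho was -0.68 (permutation p = 0.00499, adjusted 0.0855). Within genotypes r was -0.75 in KO (exact permutation p = 0.0324) and -0.87 in WT (exact permutation p = 0.00749). Without the 2 libraries farthest from the median Ldhb, KO library 6 and WT library 4, r was -0.55, and without WT library 4 alone it was -0.66. By Pearson's r 8 of the 35 members passed the adjustment, all with a negative r, and by Spearman's rho 0 did, with 10 at an unadjusted Pearson p under 0.05. Besides Ldha they were Phka1 (-0.77), Pgm2 (-0.75), Stbd1 (-0.73), Aldoa (-0.70), Tpi1 (-0.69), Gpi1 (-0.66) and Eno3 (-0.65). Without KO library 6 and WT library 4 their r was -0.56, -0.56, -0.44, -0.44, -0.53, -0.48 and -0.34, in that order. Over all other tested genes 3.26% had an r with Ldhb of -0.6 or lower, and 8 of the 35 members (22.9%) did. These are the same 8 members, as the cut lies between Eno3 (-0.65) and the next member, Pgk1 (-0.59). With KO library 6 and WT library 4 left out, the lowest r of a member was -0.56, for Phka1. The share over all genes was not computed without those libraries, nor for genes at the members' levels. A mean of at least 10 CPM was reached by 32 of the 36 tested members but by 6944 of the 13792 tested genes. The 2 shares therefore compare genes of unlike levels. The points are libraries, and each gene's value in a library comes from the same reads.

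Fibre type markers varied between libraries too. The 10 slow fibre contractile markers summed to between 580.7 and 1015 CPM in KO libraries and between 279.7 and 1039 CPM in WT libraries, and 9 of the 10 had a log2 fold change above 0, with a median of 0.24. By edgeR 0 of the 10 passed, 0 had an unadjusted p under 0.05, and the lowest adjusted p was 0.665. Of the 11 fast fibre contractile markers, 8 had a log2 fold change below 0, with a median of -0.05, and 0 passed by edgeR. An unadjusted p under 0.05 was found for 2 of them, Actn3 (-0.19, edgeR adjusted p = 0.296) and Tnni2 (-0.09, edgeR adjusted p = 0.497). The fast markers summed to between 146402 and 171808 CPM in KO libraries and between 156911 and 181276 CPM in WT libraries, and their part in the values of the glycogen members, 11 of 15 below 0, was not tested. None of the 10 slow markers was at 0 in any library, and their part in the Ldhb values was not tested. Ldhb followed Myh2, the myosin of the fast oxidative type 2A fibre, with r = 0.89 over 16 libraries (permutation p = 1e-05, the smallest the resamples can give, adjusted over 4 myosins 4e-05) and rho = 0.86 (adjusted permutation p = 0.00024). Within genotypes that r was 0.88 in KO (exact permutation p = 0.00466) and 0.87 in WT (exact permutation p = 0.00206), and 0.78 without KO library 6 and WT library 4. With Myh7, the slow myosin, r was 0.55 (adjusted permutation p = 0.0588) and rho 0.64 (adjusted 0.0167). With Myh1 and Myh4, the faster myosins, r was 0.20 and -0.32 (adjusted permutation p = 0.464 and 0.308). The myosins were chosen after the values were seen.

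Against the mean log2(CPM + 0.5) of the slow markers, 0 of 36 members passed by Pearson's r and 2 passed by Spearman's rho. Ldhb had rho = 0.76 (adjusted permutation p = 0.0137) and r = 0.64 (adjusted 0.195), with r = 0.71 in KO (exact permutation p = 0.0497) and 0.61 in WT (exact permutation p = 0.107). Phka1 had rho = -0.79 (adjusted permutation p = 0.0137) and r = -0.60 (adjusted 0.195), with r = -0.51 in KO (exact permutation p = 0.183) and -0.66 in WT (exact permutation p = 0.0754). Without WT libraries 3 and 8, the farthest from the median score, r was 0.73 for Ldhb and -0.61 for Phka1. The unadjusted Pearson p was under 0.05 for 3 members.

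**Figure D4:**
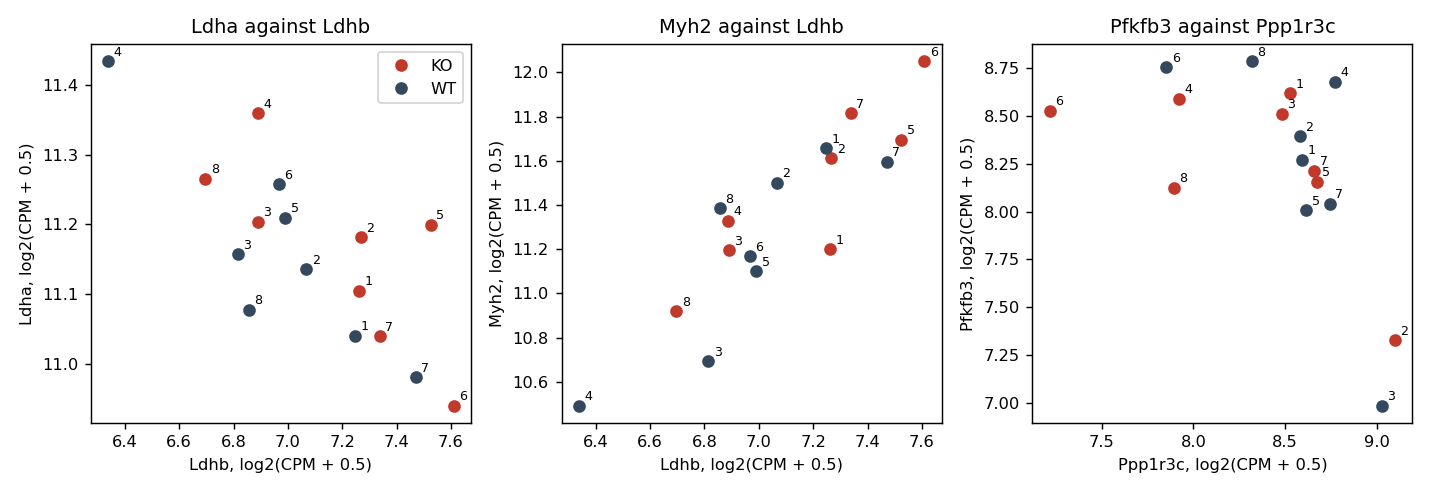
Libraries plotted by log2(CPM + 0.5) of gene pairs: Ldha against Ldhb (left), Myh2 against Ldhb (middle) and Pfkfb3 against Ppp1r3c (right), KO in red and WT in dark blue, numbered by library. Ldha goes down and Myh2 goes up with Ldhb (r = -0.77 and 0.89), while on the right KO 2 and WT 3 lie apart at the bottom.

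The PFKFB enzymes make and remove fructose 2,6-bisphosphate, the activator of phosphofructokinase. Pfkfb3 (ENSMUSG00000026773) held 63.0% ± 7.26 of PFKFB RNA per length in KO and 62.7% ± 9.50 in WT. Pfkfb1, the muscle and liver form, held 21.3% ± 4.32 in KO and 21.3% ± 5.72 in WT, and Pfkfb4 held 15.8% ± 4.22 in KO and 16.0% ± 4.04 in WT. Pfkfb3 ran from 160.0 to 392.8 CPM in KO with a median of 330.6, and from 126.2 to 441.3 CPM in WT with a median of 322.5. KO library 2 and WT library 3 were the lowest and the groups overlapped, with a log2 fold change of -0.02 ± 0.21 (SE; edgeR adjusted p = 0.988) and a 95% interval from -0.47 to 0.43. Its within-genotype SD of 0.52 on the log2 scale was the highest of the tested members, against 0.05 for Phkb, the lowest. Pfkfb1 and Pfkfb4 had log2 fold changes of 0.03 and -0.02. Fbp2 (ENSMUSG00000021456), the muscle fructose bisphosphatase that runs the step backwards, ran from 18.6 to 28.7 CPM in KO with a median of 20.7, and from 17.6 to 34.1 CPM in WT with a median of 27.7. The KO libraries split into 5 near 20 CPM and 3 near 28 CPM inside the WT range, with a log2 fold change of -0.21 ± 0.14 (SE; edgeR adjusted p = 0.694).

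**Figure D5:**
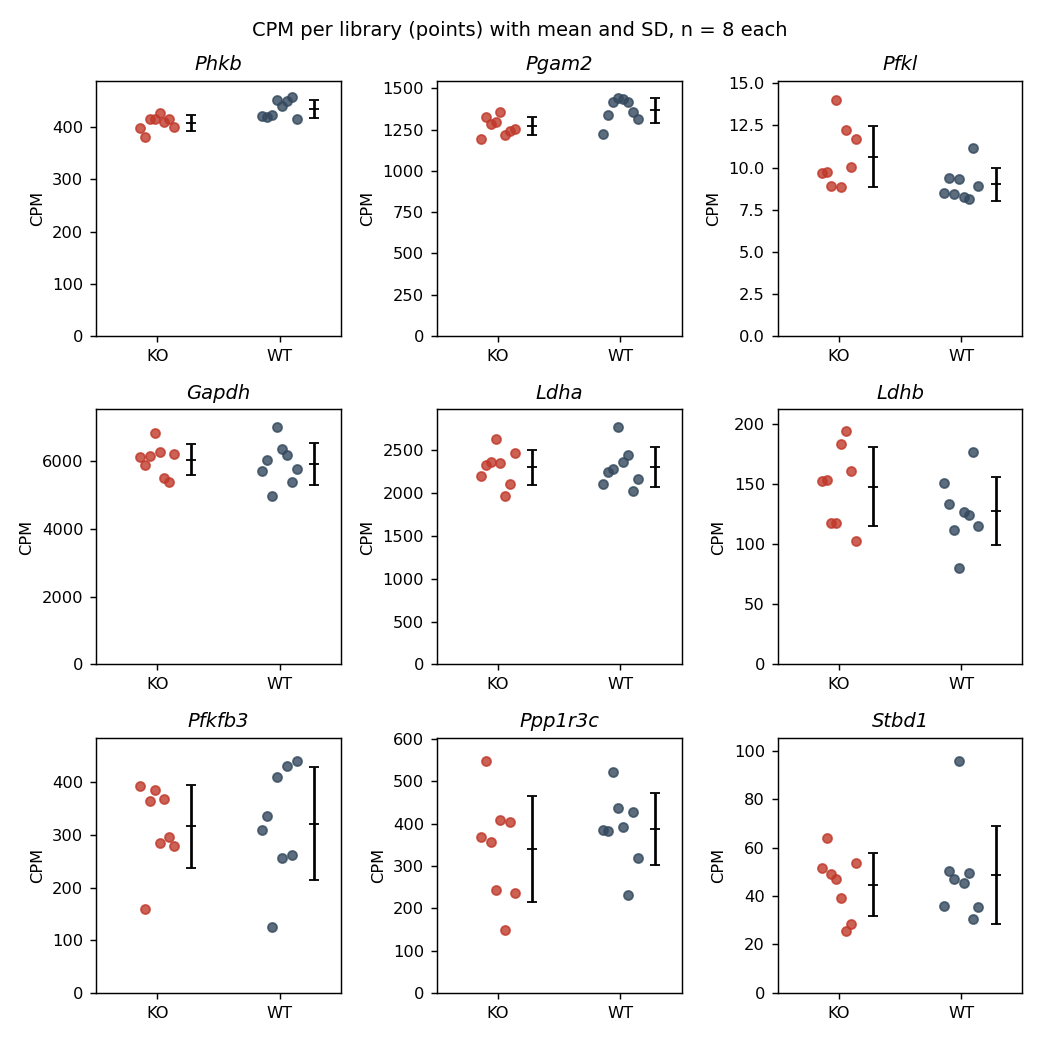
CPM of 9 members in each library, KO left and WT right, with mean and SD (n = 8 each) and axes from 0. The genotypes overlap in each panel; Phkb and Pgam2 vary little, and Pfkfb3, Ppp1r3c and Stbd1 vary most within a genotype.

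Glycogen is opened by phosphorylase. Pygm, the muscle phosphorylase (ENSMUSG00000032648), ran from 6794 to 8510 CPM in KO with a median of 7792, and from 7757 to 8762 CPM in WT with a median of 8154. The KO libraries lay lower on average but overlapped the WT libraries, and 7 of 8 lay below the WT mean. The log2 fold change was -0.08 ± 0.05 (SE; edgeR adjusted p = 0.623). Pygb, the brain form, had a log2 fold change of 0.10, and Pygm held 99.9% ± 0.0114 of phosphorylase RNA per length in KO and 99.9% ± 0.0116 in WT.

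Phosphorylase kinase switches Pygm on, and its catalytic subunit in muscle is Phkg1. Phkb, its regulatory beta subunit (ENSMUSG00000036879, GRCm38 chr8:85840959-86061376, plus strand), ran from 380.1 to 427.6 CPM in KO with a median of 412.3, and from 415.6 to 456.6 CPM in WT with a median of 431.9. All 8 KO libraries lay below the WT mean and all 8 WT libraries above the KO mean, though the ranges overlapped between 415.6 and 427.6 CPM. The log2 fold change was -0.09 ± 0.03 (SE), with an unadjusted edgeR p of 0.0134 and an adjusted p of 0.357. Phka1, the muscle alpha subunit, had a log2 fold change of -0.12 and Phkg1 one of -0.05, with edgeR adjusted p-values of 0.642 and 0.70. Without KO library 6, which was low, Phka1 had a log2 fold change of -0.07.

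On the side of synthesis, Gys1, the muscle glycogen synthase (ENSMUSG00000003865), ran from 511.7 to 624.9 CPM in KO with a median of 542.6, and from 518.0 to 585.4 CPM in WT with a median of 550.7. The groups overlapped, with a log2 fold change of -0.01 ± 0.04 (SE; edgeR adjusted p = 0.976). Gyg, glycogenin, which primes the chain, had a log2 fold change of 0.02, and Ugp2, which makes UDP-glucose, one of -0.08. Gbe1, the branching enzyme, had a log2 fold change of 0.17 ± 0.09 (SE) and an edgeR adjusted p of 0.543. Phosphoglucomutase links glucose 1-phosphate to glucose 6-phosphate, and the table gives the symbol Pgm2 to ENSMUSG00000025791 and Pgm1 to ENSMUSG00000029171. GENCODE and RefSeq name those genes Pgm1 and Pgm2, the other way round, and the table's symbols are kept here. The abundant gene (Pgm2 in the table, GRCm38 chr4:99929414-99987294, plus strand) had a log2 fold change of -0.09 and 99.8% of the pair's RNA per length in both genotypes. The rare one (Pgm1 in the table, GRCm38 chr5:64092950-64128351, plus strand) had a log2 fold change of 0.07; its mean was 2.04 CPM in KO against 1.92 CPM in WT.

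The remaining glycogen members are targeting subunits of a phosphatase and proteins that act on or bind the particle. Ppp1r3a, the muscle glycogen-targeting subunit of protein phosphatase 1, had a log2 fold change of -0.06, and Epm2a, the laforin phosphatase, one of -0.02. Ppp1r3c (ENSMUSG00000067279), another targeting subunit, ran from 148.2 to 547.9 CPM in KO with a median of 362.8, and from 230.7 to 520.9 CPM in WT with a median of 388.2. KO library 6 was the lowest and KO library 2 the highest, so the KO range enclosed the WT range. The log2 fold change was -0.19 ± 0.21 (SE; edgeR adjusted p = 0.826), with a 95% interval from -0.63 to 0.25. Leaving out KO library 6 gave -0.08, and leaving out KO library 2 gave -0.32. Stbd1 (ENSMUSG00000047963), a starch-binding protein tied to glycogen transport to lysosomes, ran from 25.6 to 63.8 CPM in KO with a median of 48.0, and from 30.5 to 95.8 CPM in WT with a median of 46.2. WT library 4 stood apart at the top and the other libraries overlapped. The log2 fold change was -0.13 ± 0.22 (SE; edgeR adjusted p = 0.904), and it turned to 0.09 without WT library 4.

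Pfkfb3 and Ppp1r3c were set against each other after their values were seen. KO library 2 and WT library 3, the lowest in Pfkfb3, were the highest in Ppp1r3c of their genotypes, at 547.9 and 520.9 CPM. They are also the shallowest and the deepest library of the 16. Over 16 libraries r was -0.57 (permutation p = 0.0244, 1 relation) and rho -0.60 (permutation p = 0.0169). Within genotypes r was -0.58 in KO (exact permutation p = 0.135) and -0.71 in WT (exact permutation p = 0.0687), and without KO library 6 and WT library 6, farthest from the median Ppp1r3c, it was -0.60. Without KO library 2 and WT library 3 r was -0.33 (permutation p = 0.247, n = 14) and rho -0.40 (permutation p = 0.154). The relation was thus weaker without those 2 libraries, though leaving them out also narrows the range of Pfkfb3.

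Reads of some members are shared with near copies. Salmon's counts were not whole in all 16 libraries for Tpi1, Pgk1, Eno1 and Ldha, in 15 for Gpi1, Aldoa and Gapdh, in 14 for Pkm, and in 13 for Pgam1 and Ldhb, taking more than 0.01 from a whole number as not whole. Salmon gives a fraction where a read matches transcripts of more than 1 gene, so their levels are less certain than those of the other members, which were whole in every library.

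A further 48 genes that carry, regulate or border on these pathways were listed, and 43 were tested. Of these, 0 passed the adjusted threshold in either direction by edgeR, and 7 had an unadjusted p under 0.05, with 1 higher and 6 lower in KO. Over all tested genes 9.57% had an unadjusted edgeR p under 0.05, with 4.02% higher and 5.55% lower in KO. Among genes with a mean of at least 10 CPM, 854 of 6944 did, with 264 higher and 590 lower in KO. The 7 genes are given next. Mlxipl, the carbohydrate response factor ChREBP, had a log2 fold change of 0.12 (86.4 ± 5.12 CPM in KO, 79.7 ± 6.74 CPM in WT). Bsg, the chaperone of the lactate carriers, had one of -0.12 (398.1 ± 23.0 CPM in KO, 431.4 ± 28.7 CPM in WT). G6pc3, the ubiquitous glucose 6-phosphatase, had one of -0.14 and Bpgm, the bisphosphoglycerate mutase, one of -0.11. Gsk3b, a kinase that inhibits glycogen synthase, had one of -0.11, and Prkaa2, the catalytic AMP-activated kinase subunit of muscle, one of -0.10. Gys2, the liver glycogen synthase, had one of -0.67, with 0.632 ± 0.177 CPM in KO against 0.995 ± 0.508 CPM in WT. Their edgeR adjusted p-values ran from 0.363 for G6pc3 to 0.508 for Bpgm. The carriers Slc2a4, the insulin-regulated glucose transporter, and Slc16a3, the lactate exporter, had log2 fold changes of -0.06 and -0.18 (edgeR adjusted p = 0.738 and 0.682). Hkdc1, Pklr, Fbp1 and Ppp1r3g were among those too low to test.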

How the data were processed

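Polyadenylated RNA of quadriceps from 8 KO and 8 WT samples was sequenced. The submitters' processing notes name GRCm38, Salmon, STAR and bcl2fastq 4.0.3. No label or header gives the other versions, the annotation or the strand setting. The authors deposited estimated counts per gene, unscaled; 11.1% of them were not whole, and all were rounded. The labels' groups were used, and columns that matched no sample numbered 0.

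All 45706 genes were analysed with edgeR 4.0.16 in R 4.3.3 (quasi-likelihood test, TMM, default low-count filter, no covariate). The 13792 tested genes left out 0.0705% of counts. Benjamini-Hochberg adjusted p under 0.05 was called. CPM per kb used GENCODE vM21 exon lengths, isoenzyme shares were taken per library, and correlations used log2(CPM + 0.5) with 100000 resamples, or all 40320 orders within a genotype (Python 3.11.15, numpy 2.4.6). Depth, 16065394 to 51881258 counts, limits the rare forms, and count precision covers counting error only. The fits were tested on simulated counts.

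Members, lists and tests were chosen with earlier results of these data known. Every member is named; lowest, median and highest library are given for members at unadjusted p under 0.05, Gapdh, Ldha, Ldhb, regulated steps (Hk2, Pfkm, Pkm, Pygm, Gys1), the 3 largest changes and the 3 most variable. Of other pathway genes, those at unadjusted p under 0.05 are named, and Slc2a4 and Slc16a3 were added after their values were seen; some listed genes are not reported here. Libraries of a genotype differed beyond sampling noise (chi-square per degree of freedom at least 8.09 in KO and 9.42 in WT). Alternatives were other scalings, filters and covariates, DESeq2 1.42.0, limma 3.58.1 and leaving out libraries.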

Additional observations from a re-analysis of the deposited data

Results flagged for a closer look

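In 72 groups (36 genes in 2 genotypes), 6 single libraries stood far from the other 7 of their genotype, where chance gives about 1 in 20 groups. In KO library 4, Gpi1 lay at 1016 CPM (next 885.4) and Gys1 at 624.9 CPM (next 565.2), both high. In KO library 8, Pfkfb4 was high at 62.1 CPM (next 49.4). In KO library 6, Phka1 was low at 764.0 CPM (next 1000.1), and the log2 fold change without it was -0.07.

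In WT library 7, Pfkl was high at 11.2 CPM (next 9.39), and without it the log2 fold change of Pfkl was 0.29 with an unadjusted edgeR p of 0.00461. In WT library 4, Stbd1 was high at 95.8 CPM (next 50.4), and without it the log2 fold change was 0.09.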

How the results depend on the processing

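No member was called in any of the 10 alternatives or the 16 fits that left out a library in turn, and the lowest adjusted p of a member was 0.0594 (Phkb, DESeq2; 6 of the 36 had none in DESeq2). The members' median log2 fold change stayed between -0.04 and -0.02 in the alternatives and between -0.05 and -0.01 without a library. Members at an unadjusted p under 0.05 numbered 3 to 6 without a library. Of all genes, 2 were called with RLE size factors, 3 with no low-count filter, 97 with DESeq2, 2 without KO libraries 1, 3, 5 and 8, and 2 to 8 without a single library. The replicate numbers did not pair the libraries (same-number correlations -0.109 to 0.247, 3 of 8 above 0.1, 2 of 8 best with their own number). With the replicate block, 5 members were at an unadjusted p under 0.05 and 2 genes were called. The share of all tested genes at an unadjusted p under 0.05 was computed for the main edgeR fit only, at 9.57%. The members' counts in the other fits therefore have no share of all genes to be read against.

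Of 936 member values, 901 kept their direction and side of the threshold and 35 changed sign; 24 members kept their sign throughout. Pfkfb3 turned to 0.0083 with limma-voom, 0.012 with the replicate block and 0.033 with RIN as a covariate. Ldha turned to 0.0075 with upper-quartile scaling, 0.0011 with a mean of at least 1 CPM, 0.00093 with limma-voom and 0.00047 with the replicate block. Epm2a turned to 0.00083 with RIN, and without KO libraries 1, 3, 5 and 8 Ppp1r3a turned to 0.024 and Gapdh to -0.0063. Without a single library the ranges were -0.050 to 0.015 (Epm2a), -0.0041 to 0.068 (Gapdh), -0.0097 to 0.048 (Gyg), -0.037 to 0.0060 (Gys1), -0.030 to 0.044 (Ldha), -0.023 to 0.070 (Pfkfb1), -0.14 to 0.076 (Pfkfb3), -0.089 to 0.026 (Pfkfb4), -0.11 to 0.054 (Pfkp), -0.10 to 0.0078 (Pgk1) and -0.22 to 0.090 (Stbd1). The causes were not tested.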

Other observations

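The libraries differed in a set of genes taken to give RNA that lacks a poly(A) tail, though the tails were not measured. The mean log2(CPM + 0.5) of 18 histone and small structural RNA genes came to 2.98 ± 0.440 in KO libraries, against 2.77 ± 0.259 in WT libraries (SD, n = 8 per genotype), and KO libraries 1, 3, 5 and 8 were the highest KO libraries, at 3.42, 3.19, 3.50 and 3.35. With this mean as a covariate, 0 members were called. WT library 8, at 3.20, and WT library 2, at 3.09, were kept in the fit without KO libraries 1, 3, 5 and 8. That fit therefore left out KO libraries only.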
